A study of Saccharomyces cerevisiae with 42 samples.

Results

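The 81 genes described here encode the proteins of the large (60S) subunit of the cytosolic ribosome of budding yeast, Saccharomyces cerevisiae. They were taken from the 6106 genes of the deposited table by name: every gene whose symbol in the R64 annotation is RPL and a number, with or without A or B, and the stalk genes RPP0, RPP1A, RPP1B, RPP2A and RPP2B. Of the 81, 70 form 35 pairs of A and B copies and 11 have no partner. BY4741 is a MATa laboratory strain with the auxotrophic alleles met15-Δ0, ura3-Δ0, leu2-Δ0 and his3-Δ1, and by the study's methods all cells were prototrophic through the plasmid pHLUM, which restores these functions. The cells were taken from a saturated culture, diluted into 200 ml of synthetic medium at an A600 of 0.15 and grown at 30°C with myriocin (Myr, 700 ng/ml in 0.3% ethanol) or with 0.3% ethanol alone (vehicle). Myr inhibits serine palmitoyltransferase, the enzyme that starts sphingolipid synthesis. Poly(A)-selected RNA was sequenced every hour from 0 h to 6 h, with 3 libraries in each of 14 groups, and by the study's methods the hours of a replicate came from 1 flask. The column letters were A, B and C at every hour with Myr. With vehicle they were A, B and D at 0 h and 3 h, and A, B and C at 1 h, 5 h and 6 h. They were A, C and D at 2 h and B, C and D at 4 h. Vehicle changes between hours can therefore compare different sets of letters, as from 0 h to 1 h. Myr libraries carried spike-in mix 2 and vehicle libraries spike-in mix 1. Values are TPM, the deposited abundance of each transcript relative to its length and to the whole library, so that levels of different genes can be set side by side. Whether the transcript models that set these lengths held untranslated regions is not given in the sources used here, which bears most on RPL41A and RPL41B, the shortest genes, and on shares that include them. As bulk values they cannot tell fewer cells with a transcript from less of it per cell.

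The large subunit holds the site where peptide bonds form and the exit tunnel of the growing chain. Its proteins assemble on ribosomal RNA in the nucleolus, and in yeast their genes are short, often spliced and present as copies from an ancient genome duplication. Ribosomal protein (RP) genes are among the most strongly transcribed of growing yeast. Rap1, Fhl1 and Ifh1 act at their promoters, and TORC1 and protein kinase A switch them with nutrient supply, low in saturated cultures and high after dilution into fresh medium.

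The copies of a pair can be nearly the same in sequence, which bears on how reads were divided between them. RPL41A (IV:130407-130484) and RPL41B (IV:221724-221801) encode the smallest protein of the ribosome in 78 nt, both on the minus strand in R64, and differ at 1 base, in capitals below. They are shown because they were the highest of the 81 genes in level and among the lowest with Myr, together with RPL29.
RPL41A: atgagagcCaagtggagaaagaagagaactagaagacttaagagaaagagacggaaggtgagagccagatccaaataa
RPL41B: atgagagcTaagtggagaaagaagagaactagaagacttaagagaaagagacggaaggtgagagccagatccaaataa

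RPL15A (XII:201976-202590) and RPL15B (XIII:509734-510348) encode a core protein of the subunit and are the most unequal of the 35 pairs. They differ at 42 of 615 coding bases, and the first 150 bases hold 7 of these differences, in capitals.
RPL15A: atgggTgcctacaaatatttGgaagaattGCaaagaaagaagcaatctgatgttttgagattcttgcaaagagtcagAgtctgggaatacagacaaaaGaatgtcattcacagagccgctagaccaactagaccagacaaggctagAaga
RPL15B: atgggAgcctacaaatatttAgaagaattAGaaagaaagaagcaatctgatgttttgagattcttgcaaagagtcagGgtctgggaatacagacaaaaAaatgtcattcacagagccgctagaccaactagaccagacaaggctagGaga

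RPL9A (VII:227754-228329) and RPL9B (XIV:499681-500256), whose protein lies near the base of the stalk, are shown because their balance changed over hours and with Myr. They differ at 36 of 576 coding bases, 9 of them in the first 150 bases.
RPL9A: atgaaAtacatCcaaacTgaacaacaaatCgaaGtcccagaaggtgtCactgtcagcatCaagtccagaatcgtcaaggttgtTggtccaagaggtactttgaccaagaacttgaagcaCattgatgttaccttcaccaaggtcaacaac
RPL9B: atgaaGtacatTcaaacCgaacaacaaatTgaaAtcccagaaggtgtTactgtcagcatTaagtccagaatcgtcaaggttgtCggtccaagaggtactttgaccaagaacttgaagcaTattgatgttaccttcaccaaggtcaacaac

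RPL42A (XIV:331322-332154) and RPL42B (VIII:381990-382751) differ at 6 of 321 coding bases, 3 of them in the first 150, yet their drug comparisons differ. The pair was added after its values were seen.
RPL42A: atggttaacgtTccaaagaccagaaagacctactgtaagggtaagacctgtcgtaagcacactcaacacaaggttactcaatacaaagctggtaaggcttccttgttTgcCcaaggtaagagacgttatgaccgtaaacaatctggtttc
RPL42B: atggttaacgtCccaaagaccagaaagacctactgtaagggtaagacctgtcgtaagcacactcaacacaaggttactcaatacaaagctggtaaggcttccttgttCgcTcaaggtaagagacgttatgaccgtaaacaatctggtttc

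Over the 35 pairs, coding identity ranged from 68.9% to 99.4% with a median of 93.2%, and 12 pairs encode identical proteins. In 29 pairs no coding stretch as long as a read is common to both copies. In the other 6 it is, for 71.4% of such stretches in RPL35A and RPL35B, 46.9% in the RPL11 pair, 44.8% in the RPL4 pair, 37.1% in the RPL1 pair, 17.6% in the RPL7 pair and 6.18% in the RPL2 pair. The division of reads between the copies of these 6 pairs, and of RPL41 with its 78 nt, is uncertain.

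The table gives no read counts, and sequencing depth is therefore unknown. Libraries of a group correlated over genes at 0.975 to 0.995 (Pearson r of log2(TPM + 1)). The strain's mating type was checked on marker genes. The 6 MATa genes summed to 8376 to 19357 TPM in Myr libraries and 7022 to 20674 TPM in vehicle libraries, while the 4 MATalpha genes summed to 36.1 to 116 TPM with Myr and 25.8 to 89.5 TPM with vehicle, and 6 genes of meiosis and sporulation to 28.5 to 83.3 TPM with Myr and 26.7 to 55.0 TPM with vehicle. In 4 vehicle libraries RPL41A lay above 70000 TPM. These were libraries A and B of 3 h, B of 4 h and A of 5 h (letters as in the column names). The counts of genes that moved without them, and the averages of RPL41A and RPL41B, are given both ways. Other values, such as shares, changes at single hours and the relation to coding length, include them.

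The 81 genes together held a small part of the transcripts at 0 h and a large part from 1 h on. Their share of all gene TPM was 7.92% ± 0.28 with Myr and 8.96% ± 0.92 with vehicle at 0 h (SD, n = 3 each). At 1 h it was 24.0% ± 0.87 with Myr and 25.5% ± 1.24 with vehicle. From 1 h to 6 h, shares lay between 20.7% and 27.6% in the 18 Myr libraries and between 23.6% and 35.9% in the 18 vehicle libraries. Leaving out RPL41A and RPL41B, the other 79 genes averaged 20.6% with Myr and 20.8% with vehicle over 1 to 6 h, and it was the RPL41 pair that stood apart, with 3.92% ± 0.81 in Myr libraries and 7.53% ± 3.3 in vehicle libraries (SD, n = 18 each). The 79 genes passed their highest share at 2 h in both treatments, with 22.7% ± 0.21 with Myr and 22.9% ± 1.16 with vehicle, and were at 17.8% ± 0.55 with Myr and 18.7% ± 0.14 with vehicle at 6 h (SD, n = 3). The treatments overlapped from 0 h to 3 h, while the Myr libraries were all above vehicle at 4 h and all below it at 5 h and 6 h; these shares were not tested.

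**Figure D1:**
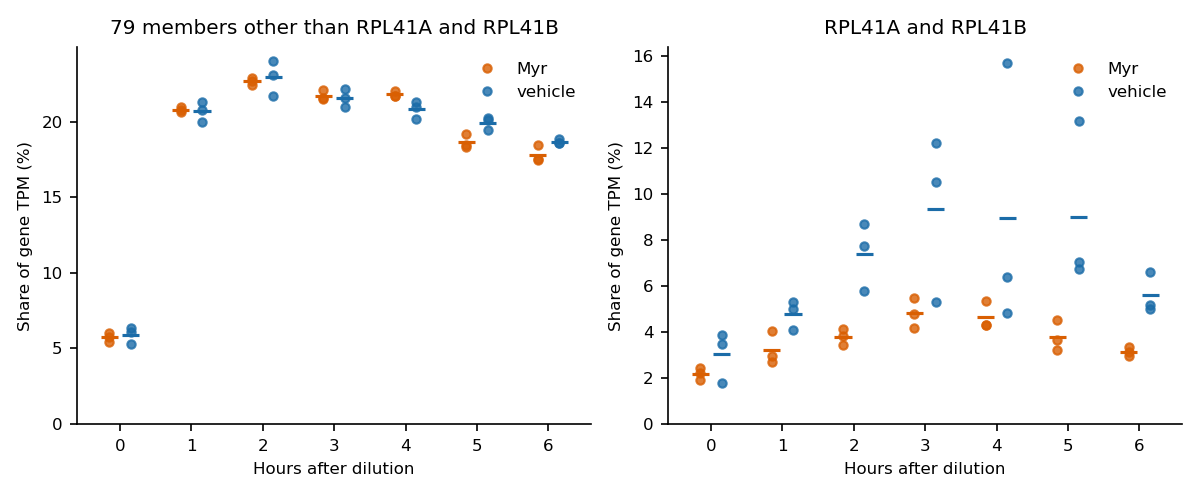
Share of all gene TPM (percent, y axis) against hours after dilution (x axis) for 79 large-subunit genes (left) and for RPL41A and RPL41B together (right), Myr in orange at the left of each hour and vehicle in blue. Points are libraries and lines are means of 3; the 79 genes overlap between treatments from 0 h to 3 h, while the RPL41 pair averages 3.92% with Myr and 7.53% with vehicle over 1 to 6 h.

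Over the 42 libraries, the highest means were those of RPL41A (34096 TPM), RPL41B (18475 TPM), RPL39 (10539 TPM), a protein of the exit tunnel, RPL38 (7245 TPM) and RPL29 (5451 TPM), which are also among the shortest genes, with 78, 78, 156, 237 and 180 coding nt. The lowest were RPL15B (54.9 TPM), RPL22B (367 TPM), RPL7B (389 TPM), RPL9B (478 TPM) and RPL18B (515 TPM), all minor copies of a pair. The 11 genes without a partner had means from 1471 to 10539 TPM with a median of 3318 TPM, against 54.9 to 34096 TPM and a median of 1997 TPM for the 70 paired genes. The spread between libraries of a group differed between treatments. The median coefficient of variation over the 81 genes was between 2.20% and 8.08% in the 7 Myr groups, and between 3.06% and 16.1% in the 7 vehicle groups, with the largest vehicle values at 0 h (16.1%) and 4 h (15.8%).

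Almost the whole set rose in the first hour after dilution, in both treatments. From 0 h to 1 h, 79 of 81 genes rose with Myr and 79 of 81 rose with vehicle (limma, adjusted p under 0.05), where 27.2% of all genes tested rose and 55.6% fell with Myr, and 29.3% rose and 52.6% fell with vehicle. The median log2 fold change of the 81 was 1.91 with Myr and 1.86 with vehicle, against medians over all 5983 genes tested of -0.48 with Myr and -0.38 with vehicle. The 56 small-subunit (RPS) genes had medians of 1.91 with Myr and 1.90 with vehicle, and all 56 rose in both.

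RPL9A rose most. It was at 1751, 1718 and 1645 TPM at 1 h, against 209, 212 and 222 TPM at 0 h, in the Myr libraries, and at 1623, 1687 and 1602 TPM at 1 h, against 269, 227 and 231 TPM at 0 h, in the vehicle libraries. No 1 h library overlapped the 0 h libraries. The log2 fold change was 2.98 ± 0.07 with Myr and 2.76 ± 0.07 with vehicle (± SE, limma adjusted p = 2.8e-27 with Myr and 7.66e-27 with vehicle). Next in vehicle came RPL8B (2.28 ± 0.12), RPL7A (2.25 ± 0.10), RPL22A (2.23 ± 0.09) and RPL16B (2.21 ± 0.13), and with Myr these genes had log2 fold changes of 2.36, 2.56, 2.21 and 2.16. Each is a main copy of its pair. The minor copies of these pairs had smaller log2 fold changes. This follows in part from entering each pair by a copy that rose most. Over all 35 pairs, the change of the A/B ratio was called in 26, 13 toward the minor copy and 13 away from it. The margins ranged widely among the pairs named. RPL9B had a log2 fold change of 0.91 with Myr and 1.17 with vehicle, and RPL8A 0.86 with Myr and 1.18 with vehicle. RPL7B had 1.35 with Myr and 1.61 with vehicle. RPL22B had 1.58 with Myr and 1.97 with vehicle, and RPL16A, named after its values were seen, had 1.98 with Myr and 2.15 with vehicle, close to RPL16B. Over both treatments the log2 ratio of A over B changed by 1.83 ± 0.07 in RPL9, -1.30 ± 0.07 in RPL8, 0.92 ± 0.09 in RPL7, 0.45 ± 0.08 in RPL22 and -0.11 ± 0.04 in RPL16, each past the test (limma, the largest adjusted p being 0.00704, for RPL16).

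The exceptions were RPL15B and RPL41B. RPL15B was at 67.0, 58.1 and 56.8 TPM at 1 h, against 66.9, 70.5 and 79.9 TPM at 0 h, with Myr, and at 48.9, 50.9 and 46.9 TPM at 1 h, against 62.6, 54.4 and 75.1 TPM at 0 h, with vehicle. The hours overlapped with Myr and did not with vehicle. It fell in vehicle (log2 fold change -0.37 ± 0.14, limma adjusted p = 0.0179; after median centring or spike-in scaling the sign was positive), and with Myr its change of -0.25 ± 0.14 did not pass (adjusted p = 0.1). For RPL41B the log2 fold change was 0.24 ± 0.29 with Myr and 0.31 ± 0.29 with vehicle, neither past the test. No gene of the 81 changed differently between the treatments from 0 h to 1 h by limma's adjusted test, where 6.23% of all genes did, and 7 had an unadjusted p under 0.05. The A/B ratio did change differently in RPL36 (-0.54 ± 0.14, limma adjusted p = 0.0349) and RPL9 (0.49 ± 0.14, adjusted p = 0.0428), and in no other of the 62 pairs tested. Leaving out single libraries kept between 78 and 79 genes called as higher in either treatment.

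**Figure D2:**
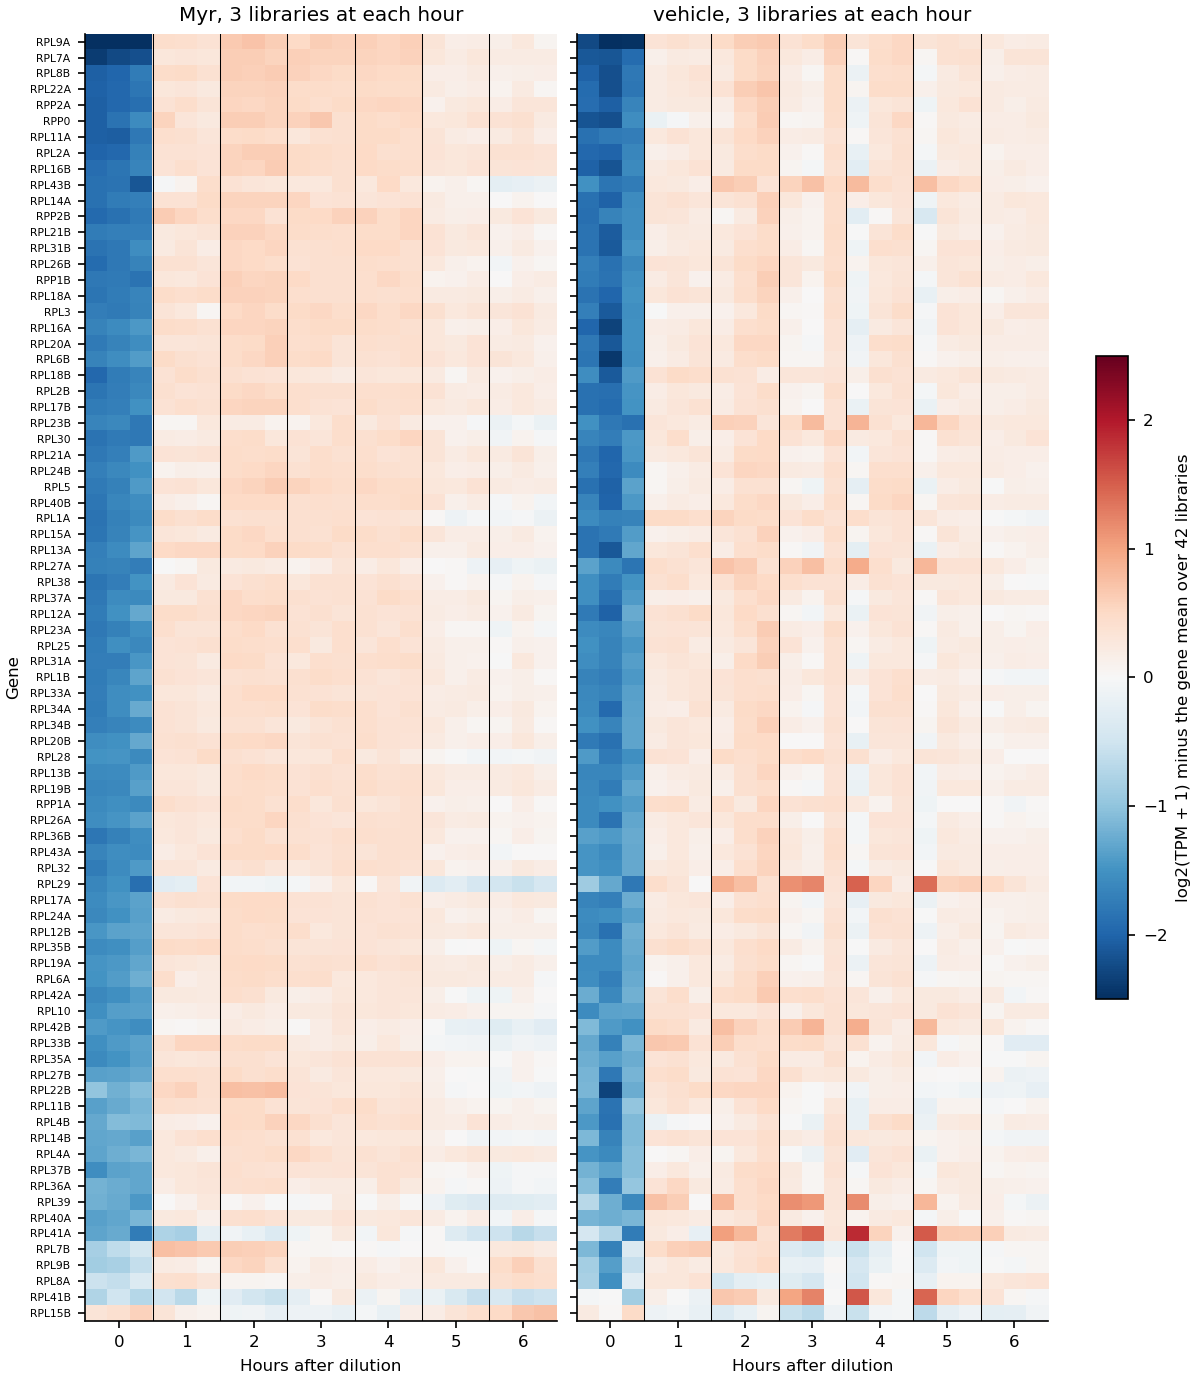
Level of each of the 81 genes (rows) in each of the 42 libraries (columns, 3 for each hour), as log2(TPM + 1) minus the gene's mean over all libraries, with Myr libraries at the left and vehicle libraries at the right; rows run from the genes lowest at 0 h to the highest. The blue 0 h columns show the low start of all but a few rows, and the red cells of RPL41A, RPL41B, RPL29, RPL39, RPL42B, RPL27A, RPL23B and RPL43B stand in the same vehicle libraries.

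The median level of the 81 genes was highest at 2 h, with 2693 TPM with Myr and 2543 TPM with vehicle, and was 2082 TPM with Myr and 2092 TPM with vehicle at 6 h. From 1 h to 6 h, 30 of the 81 genes fell and 2 rose with Myr, and 18 fell and 0 rose with vehicle by limma's adjusted test. Over all genes tested, 21.6% fell and 50.6% rose with Myr, and 26.3% fell and 43.3% rose with vehicle, so that the share of the 81 that fell was above the background with Myr and below it with vehicle. At an unadjusted p under 0.05 the count of genes that rose in vehicle was also 0. The median log2 fold change of the 81 was -0.18 with Myr and -0.11 with vehicle, against 0.31 and 0.17 over all genes. RPL33B fell most, to 1390 ± 41.7 TPM with Myr and 1347 ± 170 TPM with vehicle at 6 h, against 2139 ± 127 TPM with Myr and 2260 ± 258 TPM with vehicle at 1 h (SD, n = 3), a log2 fold change of -0.62 with Myr and -0.75 with vehicle. RPL22B (-0.60 with Myr, -0.54 with vehicle), RPL7B (-0.46 and -0.54), RPL1A (-0.52 and -0.51) and RPL27B (-0.41 and -0.44) were the next called in vehicle, by which this order was set, with Myr given first in each pair of values. With Myr, RPL35B (-0.51) and RPL28 (-0.47), named after their values were seen, fell by more than RPL7B and RPL27B. The genes that rose were RPL15B (0.46 ± 0.14, adjusted p = 0.00482) and RPL9B (0.33 ± 0.12, adjusted p = 0.0189), in Myr only by the separate tests (limma); in vehicle their log2 fold changes were -0.06 and -0.24. The difference between treatments passed for RPL9B (0.57 ± 0.18, adjusted p = 0.0326), where it was called as higher for 8.84% of all genes, and not for RPL15B (0.52 ± 0.20, adjusted p = 0.104). Over the 6 hours from 1 h to 6 h, the time term was called for 60 of 81 genes (p of 0.01 or less), a share below the 86.5% of all genes.

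Averaged over 1 to 6 h, the 81 genes differed from vehicle in both directions. Of them 35 were higher and 12 lower with Myr than with vehicle (limma, p of 0.01 or less), where 64.5% of all genes tested were higher and 5.65% lower, and the median log2 fold change was 0.08 for the 81 and 0.18 for all 5983 genes. The 12 lower genes were RPL41A (-0.91 ± 0.12), RPL41B (-0.76 ± 0.12), RPL29 (-0.76 ± 0.10), RPL39 (-0.50 ± 0.09) and RPL42B (-0.41 ± 0.06), then, with smaller changes, RPL27A, RPL23B, RPL43B, RPL42A, RPL10, RPL28 and RPL1A (from -0.37 to -0.08). The largest increases were those of RPL15B (0.38 ± 0.06), RPL8A (0.25 ± 0.04), RPL7B (0.25 ± 0.04), RPP0 (0.24 ± 0.05) and RPL9B (0.24 ± 0.04), and 4 of these 5 are the minor copy of a pair. At 0 h these 5 were already at 0.18, 0.39, 0.42, 0.15 and 0.18 in the same order, none past limma's adjusted test. With the column letter within each treatment (taken as the flask) as a random block, 23 were higher in place of 35. The counts also moved with scaling, which shifts all genes of a library alike, so that the genes that change sign are those with the smaller folds. Against the median gene, 3 of the 81 were higher and 37 lower, and 19 of the 35 increases changed sign. After spike-in scaling to each treatment's own 0 h, 76 were higher and 1 (RPL41A) lower, and 9 of the 12 decreases changed sign, all but RPL41A, RPL41B and RPL29. That baseline is 3 libraries for each treatment, with different mixes. Spike-ins held 1.25% ± 0.23 of all TPM with Myr and 0.88% ± 0.16 with vehicle at 0 h (SD). Over 1 to 6 h they averaged 0.39% with Myr and 0.41% with vehicle. The 0 h difference enters every later comparison on this scale. The shares of all genes called with the random block or on these other scales are not given here. These counts therefore have no background beside them and are not read as results about the 81 genes.

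The drug effect varied with coding length among the 81 genes. All 4 genes under 200 nt were lower with Myr (median log2 fold change -0.76). Of the 36 genes from 200 to under 450 nt, 4 were higher and 5 lower (median 0.04), of the 22 from 450 to under 600 nt 15 were higher and 1 lower (0.14), and of the 19 of 600 nt and over 16 were higher and 2 lower (0.18). Spearman's rho between the log2 fold change and coding length was 0.65 over the 81 genes, which share libraries and are no replicates, so no p is given. Removing a smooth trend of each library on coding length over all genes, an alternative chosen after the data were seen, left 6 genes higher and 21 lower. The share of all genes called in that fit is not given here.

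**Figure D3:**
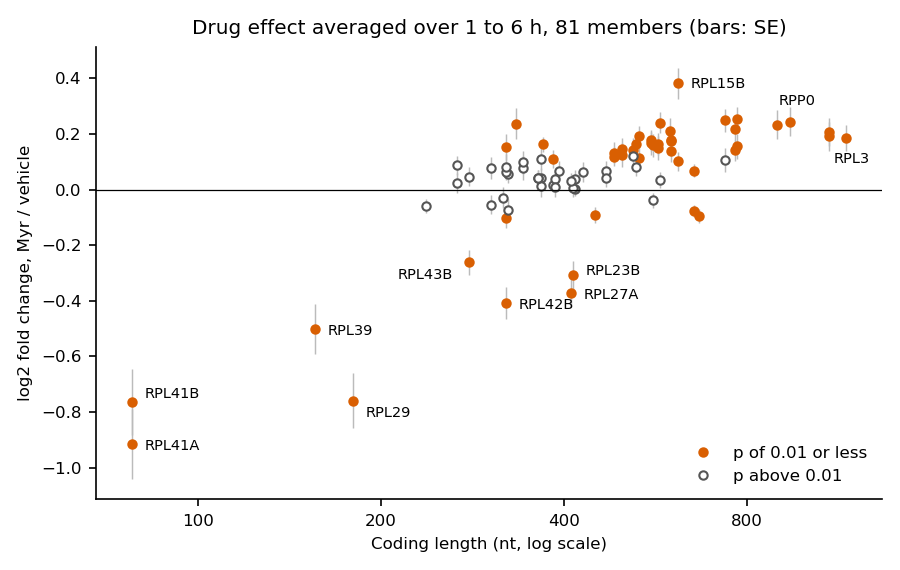
Log2 fold change of Myr over vehicle averaged over 1 to 6 h (y axis) against coding length in nt (x axis, log scale) for the 81 genes, with SE as bars; filled points passed p of 0.01 or less. RPL41A, RPL41B, RPL29 and RPL39, the 4 genes under 200 nt, lie between -0.91 and -0.50, and RPL15B at the top is at 0.38.

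RPL41A was the gene with the widest range. With Myr its level was 11792, 12219 and 8686 TPM at 0 h and lay between 16492 and 35715 TPM in the 18 libraries of 1 to 6 h. With vehicle it was 21956, 17524 and 8669 TPM at 0 h and between 25433 and 107109 TPM from 1 h on. At 4 h the Myr libraries had 27888, 35715 and 28689 TPM, against 107109, 42892 and 31548 TPM in vehicle, so that the groups overlapped. At 5 h the Myr libraries had 29971, 23519 and 20896 TPM, all below the 85010, 45357 and 44666 TPM of vehicle. At 6 h they had 20410, 18012 and 19610 TPM, all below the 44375, 34232 and 33562 TPM of vehicle. The log2 fold change was -1.18 ± 0.30 at 5 h (limma, adjusted p = 0.00192), and for the mean over 1 to 6 h it stayed between -0.98 and -0.83 whichever library was left out. RPL41B ran in parallel, with 15023, 12942 and 11421 TPM with Myr and 46356, 24694 and 22739 TPM with vehicle at 5 h (-1.18 ± 0.29, adjusted p = 0.00116). The other 79 genes had log2 fold changes from -1.20 (RPL29) to 0.64 (RPL15B) at that hour.

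The genes with the largest decreases with Myr also stood high in single vehicle libraries. In vehicle at 4 h, library B was above the mean of C and D by 1.54 on the log2 scale for RPL41A, 1.42 for RPL41B, 1.11 for RPL29, 1.05 for RPL39, 0.66 for RPL42B, 0.60 for RPL27A, 0.53 for RPL23B and 0.39 for RPL43B. These 8 were the 8 highest of the 81 signed differences and also the 8 genes lowest with Myr on average, and 15 of the 81 were above 0. In the differences of 5 h and of 3 h it was 7 of the 8. The mean over 1 to 6 h holds the vehicle libraries of these differences, so the overlaps follow in part from shared values. Genes below 0 differed by as much, such as RPL5 (-0.69) and RPL4B (-0.62), and of the other genes lower with Myr RPL10 was at -0.04, RPL1A at 0.09 and RPL28 at 0.18. In the RPL42, RPL27, RPL23 and RPL43 pairs the other copy, of the same coding length, differed by 0.11 (RPL42A), 0.06 (RPL27B), -0.21 (RPL23A) and -0.28 (RPL43A), and its log2 fold change with Myr was -0.10, 0.03, 0.01 and 0.05. These genes outside the naming rule were chosen after their values were seen. At the other hours, which share no library with that difference but may share flasks, since letters B, C and D recur, the log2 fold change of Myr over vehicle correlated with it over the 81 genes at r = -0.86 (1 h), -0.94 (2 h), -0.97 (3 h), -0.92 (5 h) and -0.76 (6 h), and at -0.58 at 0 h. Without the 4 shortest genes r was between -0.94 and -0.54 over 1, 2, 3, 5 and 6 h. The differences of vehicle library A from B and C at 5 h and of A and B from D at 3 h gave r from -0.95 to -0.72 over the other hours of 1 to 6 h. Genes share libraries and length and are no replicates, so these are descriptions. Without the 4 libraries above 70000 TPM of RPL41A, 22 of the 81 genes were higher and 11 lower on average, RPL41A at -0.66 and RPL41B at -0.51. The share of all genes called in that fit is not given here. What made the vehicle libraries differ, and its part in the drug comparison, was not tested.

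**Figure D4:**
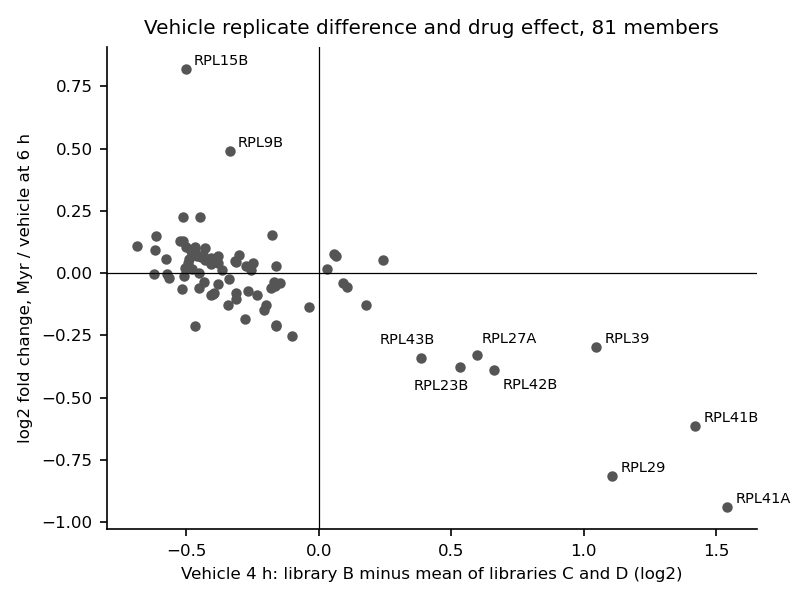
Log2 fold change of Myr over vehicle at 6 h (y axis) against the log2 difference between vehicle library B and the mean of libraries C and D at 4 h (x axis), 1 point for each of the 81 genes. The 8 genes lowest with Myr on average lie at the lower right, from 0.39 (RPL43B) to 1.54 (RPL41A) on the x axis, and r is -0.76. The axes share no library but share the letters B and C, taken as flasks. The average by which these 8 genes were picked holds the 4 h libraries.

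Hour by hour, between 1 and 29 of the 81 genes passed. At 0 h, RPL22B (0.48) and RPL6B (0.39) were higher and RPL36B (-0.34) lower with Myr, which is 2 and 1 of 81, against a background of 8.26% higher and 3.63% lower. At 1 h none was higher and RPL10 alone was lower (-0.22 ± 0.06, adjusted p = 0.0209), while 3 had an unadjusted p under 0.05 in the higher direction (background 2.42% higher, 3.01% lower). At 2 h 2 were higher and 4 lower (background 16% and 2.49%), the 4 being RPL41A, RPL41B, RPL29 and RPL42B. At 3 h 22 were higher and 7 lower (39.4% and 2.62%), and without the 2 vehicle libraries of that hour above 70000 TPM of RPL41A, which leaves 1, both counts were 0. At 4 h 6 were higher and 0 lower by limma's adjusted test (6.12% and 0.953%), with 5 lower at an unadjusted p under 0.05. At 5 h 6 were higher and 12 lower (52.2% and 3.99%), and at 6 h 2 were higher and 6 lower (19.6% and 3.43%). Single vehicle libraries decided many of these counts: without library B of 3 h 0 were higher and without D of 3 h 47, without B of 4 h 0 and without D of 4 h 37, without A of 5 h 1, and without A of 2 h 0 were higher and 0 lower at 2 h, while 0 were lower at 6 h without A of 6 h. The 5 h median was 0.04 for the 81 genes and 0.31 for all genes, and after median centring 1 was higher and 63 lower. The share of all genes called after centring is not given here.

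At 5 h the larger decreases were those of RPL29 (-1.20 ± 0.24), RPL41B, RPL41A, RPL39 (-0.65 ± 0.22) and RPL42B (-0.57 ± 0.14). RPL29 was at 3781, 3943 and 3540 TPM with Myr and 12553, 7027 and 7249 TPM with vehicle, without overlap. RPL39 was at 8866, 7794 and 7452 TPM with Myr and 17159, 10255 and 11282 TPM with vehicle, again without overlap. The larger increases were those of RPL15B (0.64 ± 0.14, limma adjusted p = 0.000409), RPL9B (0.30 ± 0.09), RPL8A (0.24 ± 0.10), RPL7B (0.24 ± 0.10) and RPL6B (0.22 ± 0.09), and against the median gene all of these but RPL15B changed sign. RPL15B was at 61.1, 66.6 and 71.7 TPM with Myr and 33.6, 45.8 and 48.7 TPM with vehicle at 5 h, and at 76.2, 85.8 and 89.0 TPM with Myr and 44.8, 45.6 and 50.2 TPM with vehicle at 6 h (log2 fold change 0.82 ± 0.14, limma adjusted p = 5.14e-05).

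A change of the drug effect over hours, the interaction of time and drug, was called for 3 of the 81 genes (p of 0.01 or less), where 22.6% of all genes were called. They were RPL9B (limma, adjusted p = 0.0205), RPL15B (0.0213) and RPL28 (0.0353). For RPL9B the log2 fold change was -0.08 at 1 h, 0.12 at 2 h, 0.27 at 3 h, 0.36 at 4 h, 0.30 at 5 h and 0.49 at 6 h. RPL28, a gene without a partner in which mutations give cycloheximide resistance, had 0.11 at 1 h and -0.30 at 5 h. RPL1A (adjusted p = 0.0712) and RPL26B (adjusted p = 0.119) came next and did not pass.

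The balance between the 2 copies of a pair can be read within a library, where the scaling of the library cancels. In 23 of the 35 pairs the mean ratio lay within 2-fold, and in 12 beyond it. The A copy was the higher in 21 pairs and the B copy in 14. The farthest from 1 were RPL15 (mean log2 ratio of A over B 5.46), RPL22 (2.98) and RPL36 (-2.36). The mean ratio of the 14 groups ranged by a median of 0.49 over the pairs, with a median SD within groups of 0.06, and 6 pairs ranged by more than 1: RPL15 (2.78), RPL9 (2.45), RPL7 (2.30), RPL8 (2.14), RPL22 (1.20) and RPL41 (1.07). The ratio differed between 1 h and 0 h in 26 of 35 pairs (adjusted p under 0.05 over 62 A/B pairs in the table, of which 74.2% were called), between 6 h and 1 h in 20 (56.5%), and over 1 to 6 h by the time term in 28 (79%). With Myr it differed in 20 (58.1%), 9 toward the A copy and 11 toward the B copy, and in 14 of these 20 toward the copy with the lower mean. The interaction was called in 10 (27.4%). The 62 pairs behind these percentages are the 35 described here, 24 RPS pairs and 3 others, so they are no separate background. The ratios also differed between vehicle libraries, and the counts include the 4 libraries above 70000 TPM of RPL41A. The largest differences with Myr were in RPL27 (-0.40), RPL23 (0.32), RPL43 (0.31) and RPL42 (0.30), pairs named here after their values were seen. In vehicle at 4 h the RPL23 ratio was -2.05 in library B, -1.40 in C and -1.21 in D. That of RPL27 was 1.98, 1.56 and 1.34.

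In RPL15 the minor copy B held 8.72% ± 0.30 of the pair with Myr and 7.83% ± 0.72 with vehicle at 0 h, and 2.06% ± 0.13 with Myr and 1.81% ± 0.10 with vehicle at 1 h (SD, n = 3). At 6 h it held 3.05% ± 0.29 with Myr and 1.75% ± 0.08 with vehicle. The log2 ratio of A over B was lower with Myr by 0.61 ± 0.10 at 5 h and 0.81 ± 0.10 at 6 h (limma, adjusted p = 1.36e-05 at 5 h and 1.51e-07 at 6 h), while at 2, 3 and 4 h the difference lay between -0.13 and 0.05. Its change from 1 h to 6 h differed between treatments (-0.63 ± 0.13, limma adjusted p = 0.00173). RPL9B held 56.0% ± 1.80 of its pair with Myr and 49.9% ± 6.79 with vehicle at 0 h, so that both copies were about equal there, and 23.1% ± 0.45 with Myr and 24.8% ± 0.26 with vehicle at 1 h. At 6 h it held 30.9% ± 0.05 with Myr and 23.5% ± 0.84 with vehicle. The log2 ratio with Myr minus that with vehicle was 0.14 ± 0.05 at 1 h, -0.18 ± 0.05 at 3 h, -0.42 ± 0.05 at 5 h and -0.54 ± 0.05 at 6 h, and the change from 1 h to 6 h differed between treatments (-0.68 ± 0.14, limma adjusted p = 0.00173).

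RPL7B, the minor copy of its pair, held 39.4% ± 1.72 with Myr and 30.0% ± 8.15 with vehicle at 0 h, 12.7% ± 0.17 with Myr and 11.7% ± 0.52 with vehicle at 3 h, and 17.7% ± 0.39 with Myr and 15.0% ± 0.53 with vehicle at 6 h. RPL8A held 45.5% ± 1.13 with Myr and 40.5% ± 7.00 with vehicle at 0 h, 19.4% ± 0.57 with Myr and 18.2% ± 0.22 with vehicle at 3 h, and 27.2% ± 0.51 with Myr and 25.2% ± 0.11 with vehicle at 6 h. These 4 pairs are those whose ratio ranged most. In them the minor copy had its largest share in the saturated culture and its smallest at 2 to 4 h. The minor copy also had a larger share with Myr than with vehicle at 5 and 6 h, each difference past the test. In all 4 pairs the mean share of the minor copy was larger with Myr at 0 h and 3 h too. At 3 h the mean log2 ratio of A over B was 6.02 with Myr and 6.15 with vehicle in RPL15, and 1.90 and 2.08 in RPL9. Other pairs went both ways. Of 19 large-subunit pairs called with Myr at 5 h, 12 moved toward the minor copy and 7 away. At 6 h 19 were called, 10 toward the minor copy and 9 away. RPL41B held 38.3% ± 0.74 with Myr and 33.1% ± 0.51 with vehicle at 6 h, against 49.9% ± 4.16 with Myr and 47.8% ± 4.46 with vehicle at 0 h, with the uncertainty of copies 1 base apart. RPL22B held 9.78% ± 0.41 with Myr and 9.06% ± 0.29 with vehicle at 6 h, against 18.6% ± 1.61 with Myr and 14.6% ± 3.93 with vehicle at 0 h, where vehicle library B stood low at 67.4 TPM.

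**Figure D5:**
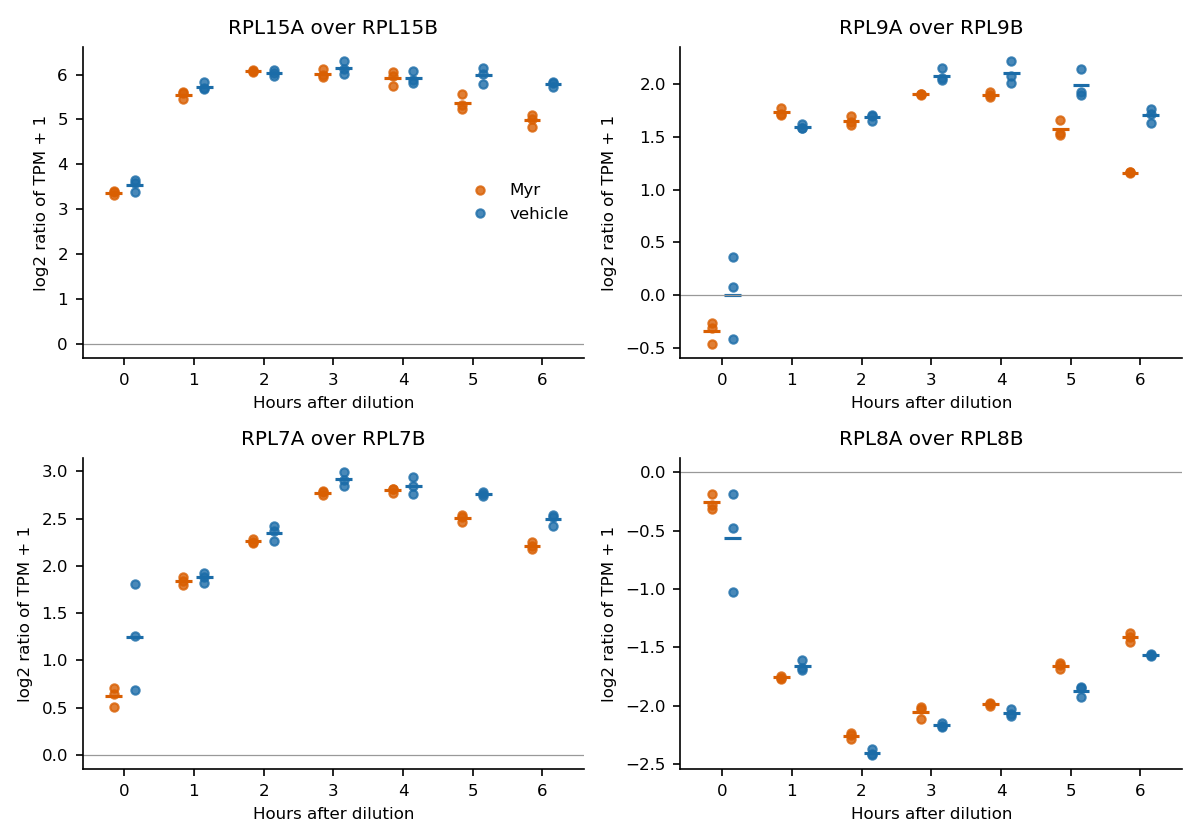
Log2 ratio of the A copy over the B copy (y axis, TPM + 1) against hours after dilution (x axis) for RPL15, RPL9, RPL7 and RPL8, Myr in orange at the left of each hour and vehicle in blue; points are libraries and lines are means of 3. At 6 h the Myr libraries lie below vehicle in RPL15, RPL9 and RPL7 and above it in RPL8, so that the minor copy holds more in all 4 pairs, such as 30.9% against 23.5% for RPL9B.

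The stalk, which recruits and activates translation factors, is built from RPP0 and the acidic proteins of RPP1A, RPP1B, RPP2A and RPP2B. RPP0 (0.24 ± 0.05), RPP2B (0.24 ± 0.06) and RPP2A (0.15 ± 0.05) were higher with Myr over 1 to 6 h, though RPP2A changed sign after median centring. RPP1B (0.08 ± 0.04) and RPP1A (0.06 ± 0.03) did not pass. RPP0 was at 1655 ± 104 TPM with Myr and 1513 ± 37.7 TPM with vehicle at 6 h, and at 1708 ± 208 TPM with Myr and 1304 ± 131 TPM with vehicle at 1 h (SD, n = 3). The 5 genes together held 1.69% ± 0.16 of gene TPM with Myr and 1.53% ± 0.17 with vehicle over 1 to 6 h (SD, n = 18). RPL40A and RPL40B, whose products are made as fusions to ubiquitin, did not pass, with log2 fold changes of 0.04 ± 0.03 and 0.01 ± 0.04. Of the 11 genes without a partner, 3 were higher and 4 lower with Myr, where 64.5% of all genes were higher and 5.65% lower, the same background as for the stalk genes.

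Promoters were searched in R64 for the letters ACCCANNCA, which match the core of Rap1 sites, on both strands. In the 500 bases before the start codon, a window chosen after the data were seen, 32 of 81 genes held a match (39.5%), as did 39.3% of the RPS genes and 6% of all genes. In 250 bases before to 50 after the start codon it was 13.6% of the 81 and 3.01% of all genes. A match stood before RPL9A, RPL7A and RPL8A, and none before RPL8B, RPL22A and RPL16B, the other 3 of the 5 genes that rose most at 1 h in vehicle, nor before RPL9B, RPL7B, RPL22B, RPL16A, RPL15A, RPL15B, RPL41A or RPL41B. The matches of the first 3, in capitals, lie 310, 251 and 239 bases before the start codon in the order RPL9A (VII:228616-228654), RPL7A (VII:366224-366262) and RPL8A (VIII:36241-36279), and are shown on the strand of the gene, where the match of RPL9A reads as the reverse complement. They are shown as the matches found in the pairs described above.
RPL9A: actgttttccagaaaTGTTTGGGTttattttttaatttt
RPL7A: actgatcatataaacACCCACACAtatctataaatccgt
RPL8A: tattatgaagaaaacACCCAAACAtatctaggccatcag
The Abf1 consensus was found in 14.8% of the 81 and 22.8% of all genes in the 500 bases. In the window of 250 before to 50 after, AAAAATTT, the element bound by Stb3, was found in 13.6% of the 81 and 14.2% of all genes, and GCGATGAG, bound by Dot6 and Tod6, in 1.24% and 3.95%. A match is not a bound site, and no match says only that these letters are not in the window.

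Genes that work with the large subunit are given by count. Of 38 factors of 60S assembly and export, 37 were tested, of which 33 were higher and 1 lower with Myr over 1 to 6 h (median log2 fold change 0.22), all 37 rose from 0 h to 1 h in both treatments, and 36 fell from 1 h to 6 h in both. Their median log2 fold change from 1 h to 6 h was -1.28 with Myr and -1.54 with vehicle, against -0.18 with Myr and -0.11 with vehicle for the 81 genes. At 0 h 19 of the 37 were already higher and 0 lower with Myr (median 0.45). At 1 h 0 were called (median 0.02), and at 3 h 33 were higher and 0 lower (median 0.38). Of 9 escorts that carry large-subunit proteins to the nucleus, 7 were higher and 1 lower with Myr, all 9 rose at 1 h and all 9 fell by 6 h in both treatments. At 0 h 4 of the 9 were higher and 0 lower with Myr (median 0.35). Of 14 regulators of RP genes 10 were higher and 0 lower, of 11 elongation factors 10 were higher and 1 lower, and of the 56 RPS genes 19 were higher and 16 lower (median 0.03). The all-gene median of 0.18 and the 64.5% of all genes called higher stand beside each of the counts with Myr over 1 to 6 h. At 0 h 8.26% of all genes were called higher.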

How the data were processed

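RNA was sequenced in 42 libraries (TruSeq Stranded mRNA, paired reads). The authors processed the reads with bcl2fastq 2.17.1.14, Trimmomatic 0.36 and Salmon 0.8.2 and deposited TPM values for 6106 genes and 92 spike-ins, each library summing to 1000000. TPM is relative to the other transcripts of a library and holds no depth, so counting error could not be computed. The members and gene lists were chosen with earlier results of these data known. Values were fitted as log2(TPM + 1) with limma 3.58.1 in R 4.3.3 (moderated tests with a variance trend) for the 5983 genes that averaged 1 TPM or more in the 36 libraries after 0 h, and fold changes of low genes are understated on this scale. Drug, time and interaction terms were called at p of 0.01 or less, and the adjusted p is printed beside them; contrasts of single hours, between hours and of A/B ratios were called where p, adjusted by Benjamini-Hochberg, was under 0.05. Adjustment ran over all 5983 genes, or over 62 A/B pairs. Hours of a replicate share a flask, and the labels say no more of how separate the replicates were, so p-values measure the spread between these libraries. On simulated data, 100% of changes of 1 and 99% of changes of 0.5 (log2) were recovered for the drug mean, and 1.11% of unchanged genes were called. Whether the simulated libraries shared flasks, or varied together as the vehicle libraries did, is not given here. These rates are therefore not the rates of true and false calls in the present libraries.

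Genes were named by rule: RPL41A and RPL41B, the stalk and RPL40 genes, the 5 highest and 5 lowest mean levels, the 5 largest called changes in each direction with Myr (mean and 5 h) and between hours in vehicle, the 5 smallest interaction p, and the pairs of widest (6) and farthest (3) ratio. Names and sequences are from RefSeq's R64 genome and annotation, which matched 6103 of 6106 genes. Alternatives were other pseudocounts and filters, median centring, spike-in scaling, the total without RPL41A and RPL41B, no variance trend, the column letter as a random block, and leaving out each library. Chosen after seeing the data were a fit without the 4 libraries where RPL41A exceeded 70000 TPM, a promoter window of 500 bases, and removing a trend on coding length.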

Additional observations from a re-analysis of the deposited data

Results flagged for a closer look

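The drug effect differed between hours for RPL9B (limma interaction, adjusted p = 0.0205), RPL15B (adjusted p = 0.0213) and RPL28 (adjusted p = 0.0353), and the change of RPL9B from 1 h to 6 h differed between Myr and vehicle (adjusted p = 0.0326). The effect of Myr on the A/B ratio differed between hours in 10 pairs by the same kind of test over 62 pairs. The adjusted p was 3.06e-07 for RPL9, 1.99e-05 for RPL8, 2.47e-05 for RPL15, 0.00207 for RPL4, 0.00349 for RPL35, 0.0052 for RPL16 and for RPL7, 0.00755 for RPL41, 0.0185 for RPL14 and 0.0459 for RPL21. RPL4, RPL35 and RPL7 are among the pairs whose copies share stretches of read length, and the RPL41 copies differ at 1 base, so that the division of their reads is uncertain. RPL4, RPL35, RPL16, RPL14 and RPL21 were named here for passing this test, after their values were seen.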

How the results depend on the processing

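No paired analysis was possible because the columns carry letters and no replicate number that would pair Myr with vehicle cultures. The letter within a treatment, taken as the flask, was fitted as a random block, with a correlation of 0.18 over genes. Deviations from group means correlated at 0.0264 between libraries of the same letter. Counts of the 81 genes are given as higher and lower with Myr. The shares of all genes called under each alternative are not given, so these counts cannot be set against a background. Pseudocounts of 0.1 and 10, no filter and a minimum of 10 TPM moved no count by over 1.5 times. After median centring the mean over 1 to 6 h gave 3 and 37, 1 h 3 and 0, 5 h 1 and 63, none higher at 2 h and 3 h, 2 higher at 4 h, 7 lower at 0 h, 19 lower at 6 h and 18 interactions; from 1 h to 6 h 0 rose and 76 fell with Myr and 62 fell with vehicle, and from 0 h to 1 h 0 fell with vehicle. After spike-in scaling the mean gave 76 and 1, 0 h 0 and 0, 1 h 1 and 0, 2 h 77 and 0, 3 h 76 and 0, 5 h 69 and 3, 6 h 13 and 0, 75 higher at 4 h and 0 interactions; from 1 h to 6 h 0 rose and 56 fell with Myr and 37 fell with vehicle, from 0 h to 1 h 0 fell with vehicle, and RPL41B at -0.19 no longer passed. With RPL41A and RPL41B out of the total, 5 h gave 2 and 19, with 6 lower at 0 h, 1 higher at 1 h, 1 lower at 2 h and 11 lower at 6 h. Without the variance trend 3 were higher at 5 h. With the flask as a random block, 23 were higher on average, 7 lower at 2 h, 12 higher and 1 lower at 4 h and 2 higher at 5 h. Without the 4 libraries above 70000 TPM of RPL41A, 22 were higher on average, 0 h gave 4 and 4, 1 h 8 and 4, 2 h 22 and 9, 3 h 0 and 0, 6 h 7 and 14, with 1 higher at 4 h, 11 interactions and 1 that fell from 0 h to 1 h with Myr. With the trend on coding length removed, the mean gave 6 and 21, 0 h 6 and 5, 3 h 2 and 4, 5 h 1 and 52, with 5 higher at 1 h, 1 lower at 2 h, 3 higher at 4 h, 25 lower at 6 h and 38 interactions; from 1 h to 6 h 0 rose and 76 fell with Myr and 48 fell with vehicle, and from 0 h to 1 h 0 fell with vehicle. The cause of these shifts was not tested.

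Leaving out 1 library at a time gave 32 to 41 higher and 11 to 13 lower on average, 0 to 11 and 0 to 2 at 0 h (0 higher without vehicle B, 11 without vehicle D), 0 to 1 and 0 to 1 at 1 h, 0 to 8 and 0 to 7 at 2 h (0 and 0 without vehicle A of 2 h), 0 to 47 and 0 to 10 at 3 h (0 higher without vehicle B, 0 lower without vehicle A, 47 and 10 without vehicle D of 3 h), 0 to 37 and 0 to 5 at 4 h (0 higher without vehicle B, 37 and 5 without vehicle D of 4 h), 1 to 11 and 10 to 13 at 5 h (1 higher without vehicle A of 5 h), and 2 to 5 and 0 to 11 at 6 h (0 lower without vehicle A of 6 h). The time term was called for 55 to 78 and the interaction for 1 to 4. From 1 h to 6 h, 1 to 2 rose and 22 to 36 fell with Myr, and 0 rose and 14 to 23 fell with vehicle. From 0 h to 1 h, 78 to 79 rose in each treatment and 0 to 1 fell with vehicle. Pairs were called in 19 to 22 cases with Myr, 27 to 29 over time, 8 to 14 by interaction, 22 to 26 at 1 h and 15 to 21 at 6 h. RPL41A stayed between -0.98 and -0.83 and RPL41B between -0.83 and -0.69. TPM without counts sets a limit on judging the low genes, such as RPL15B.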
